A study of Mus musculus with 9 samples.

Results

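Exonic circular RNAs whose back-splice joined genomic positions at least 50000 bases apart were examined in mouse bone marrow mesenchymal stem cells (BMSCs), a commercial stock of marrow stromal cells that can be driven towards bone-forming cells. The circRNAs were taken from the deposited tables by their annotated type, exon, and by the distance from start to end, a rule that uses no expression value. They numbered 310 of the 6614 circRNAs listed in any library, and 5.13% of the 6041 exonic ones. They came from 200 host genes. All cultures were kept for 7 days, and each condition had 3 libraries of total RNA. The C2S cultures received dicalcium silicate, a calcium silicate ceramic, together with osteogenic medium, at a dose that the labels do not tie to the sequenced cultures. The OM cultures received osteogenic medium alone, which supplies a glucocorticoid (dexamethasone, 100 nM), a phosphate source (beta-glycerophosphate, 10 mM) and ascorbic acid (0.2 mM). The PM cultures stayed in proliferation medium, which is DMEM with fetal bovine serum and antibiotics and is also the medium in which all cells had been expanded. Since no label states that replicate libraries came from different cultures, the p-values speak only to the spread among these 9 libraries, part of which may be technical.

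A circular RNA forms when the spliceosome joins the end of a downstream exon (the donor) to the start of an upstream exon (the acceptor), so that the exons between them close into a ring without a cap or a poly(A) tail. Lacking free ends, circRNAs are resistant to exonucleases and often outlast the linear transcript of the same gene. Back-splicing is known to be favoured by long introns on both sides of the circularized exons, in particular where inverted repeats in these introns can pair. The only reads that tell a circle from its linear counterpart are those across the back-splice junction, because the exons themselves are the same.

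The junctions below belong to the long-span circRNAs that passed a test between media, with the circles of Etv6 and Cpq added as examples that join exons across a single very long intron. Each sequence runs 5′ to 3′ on the transcript strand; lower case marks the end of the donor exon and capitals the start of the acceptor exon. Exon bases were read from GENCODE M21 transcripts on the build of the files, mm10 (GRCm38).
Rmst circ_1483, chr10:92075170-92136690, minus strand: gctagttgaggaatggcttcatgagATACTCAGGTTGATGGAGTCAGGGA
Grik2 circ_2440, chr10:49523682-49578302, minus strand: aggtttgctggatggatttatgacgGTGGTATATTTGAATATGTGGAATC
Grik2 circ_1704, chr10:49355909-49422672, minus strand: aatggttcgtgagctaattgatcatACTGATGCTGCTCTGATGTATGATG
Pcdh19 circ_1199, chrX:133625269-133681408, minus strand: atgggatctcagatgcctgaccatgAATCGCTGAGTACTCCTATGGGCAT
Dtnb circ_906, chr12:3617606-3686862, plus strand: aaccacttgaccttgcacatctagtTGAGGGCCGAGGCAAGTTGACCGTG
Cpq circ_2796, chr15:33249926-33302547, plus strand: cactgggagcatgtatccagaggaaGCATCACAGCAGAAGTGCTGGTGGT
Etv6 circ_2848, chr6:134066307-134137417, plus strand: tgccaacacacctgcCCTCGAGGGACTGGT
The Grik2 circles join exon 6 back to exon 2 (circ_2440) and exon 10 back to exon 7 (circ_1704) of a 16-exon transcript. The Pcdh19 circle holds exons 2 to 4 of 5, and the Dtnb circle exons 5 to 9 of 19. The Etv6 circle joins exon 3 back to exon 2, and the Cpq circle exon 4 back to exon 3. Both ends of the Rmst circle lie at annotated exons, but no single annotated Rmst transcript holds both, so its inner exons are not given.

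The deposited circRNA values are RPM, back-splice reads scaled to a common total of circRNA reads per library, and the linear values are FPKM, scaled to library total and transcript length. Libraries held 13691 to 20769 circRNA reads. The listed circRNAs made up 90.6% to 93.0% of that total, and no listed circRNA accounts for the rest. Shares of circRNA reads given below are of the whole total. The 900 entries of long-span circRNAs had a median of 3 reads, and 390 of them (43.3%) stood at 2 reads, the lowest value listed, so single entries carry a large counting error. C2S libraries held 16936 to 17934 circRNA reads, OM libraries 19123 to 20769 and PM libraries 13691 to 16123, so depth was lowest in PM. Of 8 stromal markers, 5 (Cd44, Ly6a, Pdgfrb, Itgb1 and Vcam1) had at least 1 FPKM in every library, while Eng reached 1.39, Thy1 1.21 and Nt5e 2.92 FPKM at most. The summed macrophage markers stood at 2.16 to 2.85 FPKM in C2S, 2.53 to 2.86 in OM and 7.29 to 8.23 in PM, most of it from Cd68 and Lyz2. The more specific Adgre1 stayed at or under 0.0079 FPKM and the pan-leukocyte gene Ptprc at or under 0.009 FPKM. What part the macrophage markers have in the differences between media was not tested. In bulk RNA, fewer cells of a type and less RNA per cell cannot be told apart.

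Annotated exons made up a small share of the span of the long-span circRNAs. Of the 310, 284 had both ends on a single annotated transcript of the host. Where several transcripts fitted, the one with the most exons between the ends was taken. These circles held a median of 6 exons (range 2 to 25). If every annotated exon between the ends is kept, they held a median of 792 spliced bases, which is 1.21% of the genomic span. None was a single exon. Exonic circRNAs of 10 to 50 kb held a median of 5 exons and 696 bases, those of 1 to 10 kb 3 exons and 439 bases, and those under 1 kb 2 exons and 328.5 bases. The longest inner intron measured 33817 bases at the median and took a median of 53.4% of the long span, against 49.3% in circRNAs of 10 to 50 kb, 61.9% in those of 1 to 10 kb and 16.9% in those under 1 kb. In the Etv6 circle, 70819 of the 71111 bases were the 1 intron between its exons, which together make 292 bases. In the Cpq circle the intron took 52206 of 52622 bases. The shortest long-span circle by spliced length was circ_7061 of Pknox2, with 2 exons and 175 bases, and the longest was circ_3017 of Nsd1, with 11 exons and 4785 bases.

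The introns beside the circles were long too. The median intron upstream of the acceptor measured 22657 bases for long-span circRNAs, against 14450, 7750.5 and 6064 bases in the classes of 10 to 50 kb, 1 to 10 kb and under 1 kb, and the median intron downstream of the donor 23844 bases, against 9671, 4850 and 5343.5. For Grik2 circ_2440 these introns measured 204842 and 101009 bases. Their host genes had a median length of 220525 bases, against 99984, 70171.5 and 63371; the part of gene length in the intron differences was not tested. The long-span circles covered a median of 30.2% of their gene, against 17.7%, 5.31% and 0.92%. The second exon was the acceptor in 130 of the 284 (45.8%), against 41.0%, 31.6% and 33.8%. These are descriptions of the annotation, without a test. No circRNA of any type spanned more than 99534 bases, and an upper limit in the callers, if there was one, is not stated in the labels.

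The median level of long-span circRNAs was close to that of shorter ones, but it lay near the listing floor of 2 reads. In C2S replicate 1 the median listed value was 168 RPM in every exonic span class, so such medians can hardly separate the classes. The highest mean RPM was 3755 for long-span circRNAs, against 3895 at 10 to 50 kb, 9643 at 1 to 10 kb and 13470 under 1 kb. The mean RPM over the 9 libraries had a median of 28.6 for long-span circRNAs, against 29.4, 33.8 and 38.2 in the successively shorter classes, and their hosts a median of 10.2 FPKM, against 12.1, 12.7 and 13.3. In 134 cases (43.2%) the circle was listed in a single library, and in 24 cases (7.74%) in all 9; the shares listed in all 9 were 8.08%, 10.1% and 12.2% in the shorter classes. At the edge of the set, Akap7 circ_4648 (50105 bases, 46.16 RPM) and Ankib1 circ_1266 (50242 bases, 160.0 RPM) lay just inside, and Rbms1 circ_4137 (49784 bases, 84.13 RPM) and Lnpep circ_609 (49672 bases, 42.96 RPM) just outside. The 3 longest circles listed in at least 3 libraries were those of Ccdc141 (95772 bases, 49.17 RPM), Rere (95603 bases, 110.5 RPM) and the receptor tyrosine phosphatase gene Ptprk (94408 bases, 38.59 RPM).

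**Figure D1:**
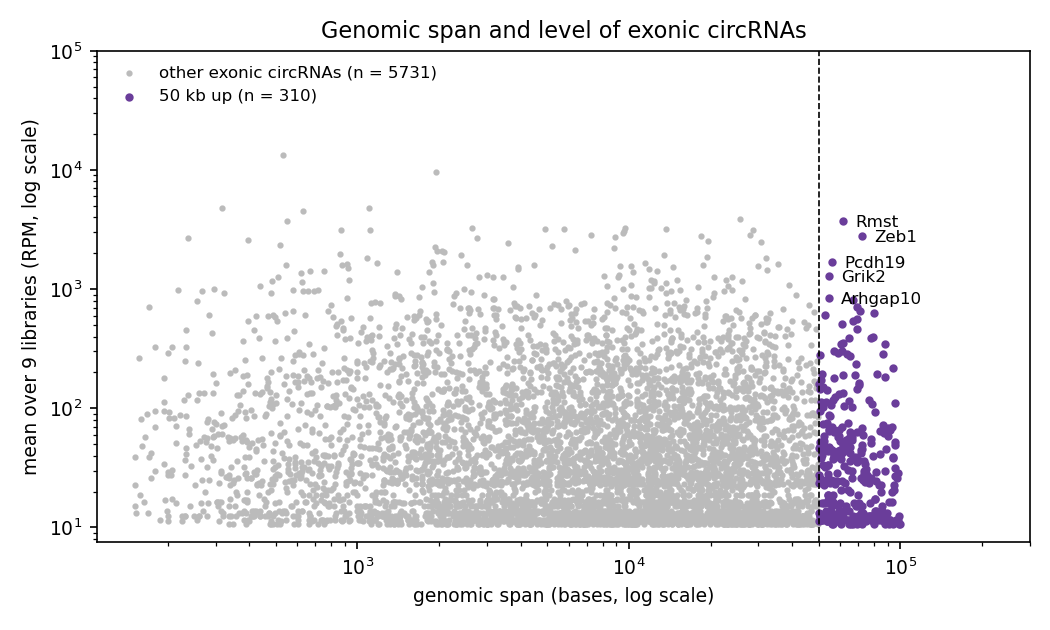
Genomic span (bases, log axis) against the mean over 9 libraries (RPM, log axis) for every exonic circRNA, with the 310 of 50 kb up in purple and the other 5731 in grey; the dashed line marks 50000 bases. The long-span circles reach 3755 RPM (Rmst), and many lie near the lower edge, where a circRNA is listed in a single library.

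Together the long-span circRNAs held 3.29 ± 0.269% of the circRNA reads in C2S, 3.36 ± 0.105% in OM and 2.90 ± 0.0704% in PM (SD, n = 3 each). Single libraries held 3.12%, 3.60% and 3.15% in C2S, 3.34%, 3.27% and 3.47% in OM, and 2.83%, 2.92% and 2.96% in PM, so every library of C2S and of OM lay above every library of PM, while C2S and OM overlapped. With the Grik2 circles left out, the shares were 2.84% to 3.25% in C2S, 2.99% to 3.18% in OM and 2.78% to 2.93% in PM, so that C2S and PM then overlapped. Exonic circRNAs of 10 to 50 kb held 24.8 ± 0.218% in C2S, 26.3 ± 0.369% in OM and 24.4 ± 1.33% in PM. Those of 1 to 10 kb held 33.7 ± 0.426%, 34.9 ± 0.092% and 33.7 ± 1.21% in the same order. Those under 1 kb went the other way, with 11.2 ± 0.075% in C2S, 11.3 ± 0.232% in OM and 12.4 ± 0.53% in PM. There every PM library lay above every C2S and OM library. Libraries listed a mean of 101 long-span circles in C2S, 116 in OM and 83 in PM, and the part of depth in the shares was not tested. Set against linear depth, long-span junctions gave, as RPM of linear instead of circRNA reads, 16.3, 19.4 and 17.0 in C2S, 19.5, 16.3 and 22.6 in OM, and 11.7, 12.7 and 16.4 in PM, so that both C2S and OM then overlapped PM. The sum rested on few circles: the highest one made up 11.8% of the long-span RPM, the 3 highest 25.9% and the 10 highest 43.3%.

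The highest of all was made by a noncoding gene. Rmst (ENSMUSG00000112117) is a long intergenic noncoding RNA, and its circ_1483 had 3965, 4851 and 4428 RPM in C2S, 3563, 4131 and 4637 RPM in OM, and 3214, 2399 and 2605 RPM in PM. All C2S and OM values lay above all PM values. The linear values of Rmst were low beside it, at 4.31 ± 0.352 FPKM in C2S, 3.93 ± 0.266 in OM and 2.03 ± 0.0611 in PM (SD, n = 3 each). Its ratio of 1100 RPM per FPKM ranked 2 of the 2690 circRNAs with a tested host, while the long-span circles tested had a median of 7.33 and all tested circRNAs one of 8.91. FPKM counts reads on the exons of a gene, so it cannot separate linear molecules from circles and holds some of the reads of the circle itself. Only 8 of the 310 circles came from genes annotated as long intergenic noncoding RNA, and 300 came from protein-coding genes.

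Among transcription factor genes, the long-span circle of Zeb1, a zinc-finger repressor known for its part in epithelial-mesenchymal transition, came next in level. Zeb1 circ_472 spanned 72040 bases and had 2457, 2732 and 2893 RPM in C2S, 2793, 2353 and 2497 RPM in OM, and 3579, 3153 and 2729 RPM in PM. The groups overlapped, and no comparison passed the test. Etv6, an ETS-family repressor, gave circ_2848 with 335, 558 and 709 RPM in C2S, 530, 471 and 662 RPM in OM, and 876, 959 and 744 RPM in PM. The PM values lay above all others, yet the OM-over-PM estimate of -0.55 ± 0.28 on the log2 scale (SE) had an adjusted p of 0.439.

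Both genes whose circles passed in OM against PM encode cell-surface proteins. Pcdh19, a protocadherin of the cell adhesion family, gave circ_1199 with 1731, 1394 and 1535 RPM in C2S, 1252, 1203 and 1121 RPM in OM, and 2045, 2741 and 2295 RPM in PM. The 3 groups did not overlap, with OM lowest and PM highest. Grik2 encodes a subunit of kainate-type glutamate receptors, which are ion channels best known in neurons. Its circ_2440 had 1787, 2007 and 1653 RPM in C2S, 1782, 1726 and 1987 RPM in OM, and 292, 343 and 0 RPM in PM, where the last library had no listed read. Its circ_1704, from a separate stretch of the gene, had 949, 1450 and 1181 RPM in C2S, 1107, 1098 and 917 RPM in OM, and 146, 137 and 310 RPM in PM. Both Grik2 circles were several times more abundant in C2S and OM than in PM in every library, although in reads the PM values were only 4, 5 and 0 for circ_2440 and 2, 2 and 5 for circ_1704. The neuronal markers Snap25, Rbfox3 and Syt1 stayed at or under 0.021 FPKM in every library.

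Genes of the cytoskeleton and of signalling followed. Dtnb encodes beta-dystrobrevin, a component of the dystrophin-associated complex, and its circ_906 had 726, 1506 and 1181 RPM in C2S, 530, 628 and 1121 RPM in OM, and 292, 137 and 248 RPM in PM. All C2S and OM values lay above all PM values, with a wide spread inside both. Arhgap10, a GTPase-activating protein gene, gave circ_2635 with 851 ± 72.3 RPM in C2S, 972 ± 172 in OM and 720 ± 30.8 in PM (SD, n = 3 each).

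Enzyme genes completed the 10 highest. Tasp1, the gene of a threonine protease, gave circ_706 with 795 ± 86.4 RPM in C2S, 690 ± 69.7 in OM and 404 ± 131 in PM, the PM values lying below all others. Cpq, the gene of a carboxypeptidase, gave circ_2796 with 451 ± 216 RPM in C2S, 502 ± 125 in OM and 869 ± 167 in PM, the PM values lying above all others. Neither passed the test in any comparison.

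**Figure D2:**
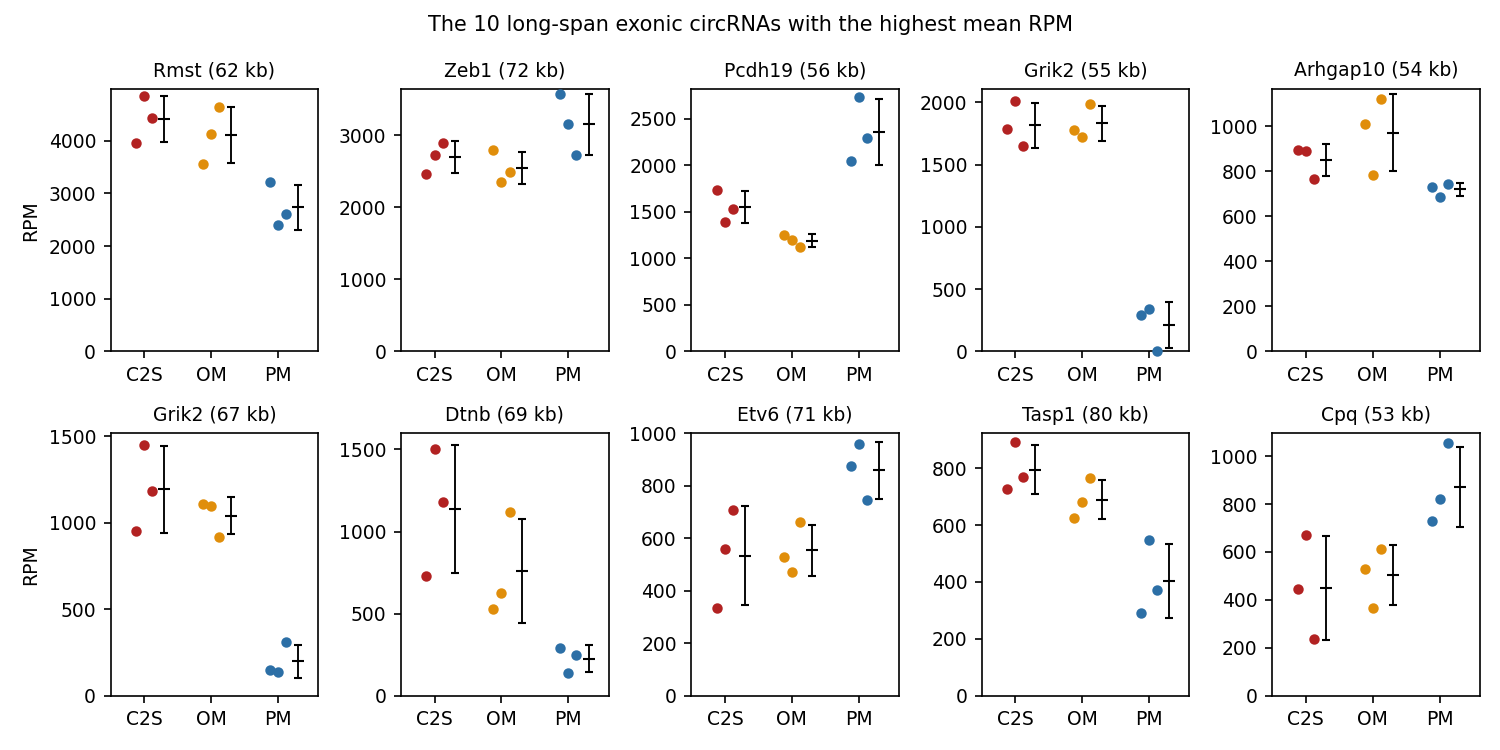
RPM in each library of the 10 long-span circRNAs with the highest mean, each panel on its own linear axis from 0; points are libraries of C2S (red), OM (orange) and PM (blue), and the bars beside them are the mean ± SD. Both Grik2 panels and the Dtnb panel show PM below C2S and OM, while the Pcdh19 panel shows PM above both.

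Osteogenic medium was compared with proliferation medium to see which long-span circles differ after the change of medium. Both Grik2 circles were higher and the Pcdh19 circle was lower in OM. Grik2 circ_2440 averaged 1831 ± 138 RPM in OM and 212 ± 185 RPM in PM (SD, n = 3 each), a log2 change of 2.83 ± 0.40 (SE, limma adjusted p = 0.0019). Grik2 circ_1704 averaged 1041 ± 107 RPM in OM and 198 ± 97.4 RPM in PM, a log2 change of 1.94 ± 0.28 (adjusted p = 0.0019). Pcdh19 circ_1199 averaged 1192 ± 66.1 RPM in OM and 2360 ± 353 RPM in PM, a log2 change of -0.91 ± 0.17 (adjusted p = 0.0140). Changes are on the scale of log2(RPM + 111.7), which understates the change of low circRNAs. These were 3 of the 127 long-span circles that could be tested, being listed in at least 3 libraries; the other 183 were not tested. Among all 2898 circRNAs tested, 1.55% passed, 21 of them higher (0.725%) and 24 lower (0.828%) in OM. In this setting the long-span share of 2.36% is near the background. The Pcdh19 call was lost when any OM library or PM replicate 2 was left out (adjusted p 0.0521 to 0.0759), and with junction reads scaled to linear depth (-0.62, adjusted p = 0.18). On that scale the median change of all tested circRNAs was 0.24 in place of 0.09, and 34 circRNAs were called higher and 8 lower.

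Just short of the threshold came circles of Dtnb, Rmst and Gas2. Dtnb circ_906 averaged 759 ± 317 RPM in OM and 226 ± 79.9 RPM in PM (1.34 ± 0.34, adjusted p = 0.0713), and Rmst circ_1483 averaged 4110 ± 537 RPM in OM and 2739 ± 424 RPM in PM (0.57 ± 0.14, adjusted p = 0.0713). Both passed on the scale of linear depth, with an adjusted p of 0.0484 for Dtnb and 0.0363 for Rmst. Gas2, a gene of a cytoskeleton-binding growth arrest protein, is named here after its values were seen: its circ_325 had 96.3, 157 and 0 RPM in OM, against 365, 685 and 930 RPM in PM (a log2 change of -2.0 ± 0.50, adjusted p = 0.0713). The OM and PM values of Gas2 circ_325 did not overlap. Over the 127 circles the median change was 0.19, against 0.09 over all circRNAs tested, and 80 of 127 estimates (63.0%) were positive, against 55.3%.

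Adding dicalcium silicate to osteogenic medium was compared with osteogenic medium alone. No long-span circle passed, and none of the 2898 circRNAs did (0.0%). With limma, the only test run here, 5 of the 127 long-span circles had an unadjusted p under 0.05 (3.94%), against 151 of 2898 (5.21%), and the lowest adjusted p was 0.504. The Grik2 circles differed by -0.01 ± 0.40 (circ_2440) and 0.17 ± 0.28 (circ_1704) on the log2 scale, Rmst circ_1483 by 0.10 ± 0.14, Pcdh19 circ_1199 by 0.35 ± 0.17 and Dtnb circ_906 by 0.53 ± 0.34. None of these 5 passed, and the median SE over the 127 long-span circles was 0.48. The median change was -0.08, against -0.04 over all circRNAs tested.

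Against proliferation medium, the C2S cultures showed the Grik2 circles higher, as well as those of Dtnb and Rmst. This comparison uses the same PM libraries as the OM comparison and is no second test of the same differences. Grik2 circ_1704 averaged 1193 ± 250 RPM in C2S and 198 ± 97.4 RPM in PM (2.10 ± 0.28, adjusted p = 0.00105), and circ_2440 averaged 1816 ± 179 RPM in C2S and 212 ± 185 RPM in PM (2.81 ± 0.40, adjusted p = 0.00201). Dtnb circ_906 averaged 1137 ± 392 RPM in C2S and 226 ± 79.9 RPM in PM (1.87 ± 0.34, adjusted p = 0.00987). Rmst circ_1483 averaged 4415 ± 443 RPM in C2S and 2739 ± 424 RPM in PM (0.67 ± 0.14, adjusted p = 0.0295). The 4 calls among 127 (3.15%) stood beside 1.66% of all circRNAs tested, of which 27 were higher (0.932%) and 21 lower (0.725%); scaled to linear depth, 30 were higher and 14 lower. Pcdh19 circ_1199 averaged 1554 ± 169 RPM in C2S and 2360 ± 353 RPM in PM (-0.57 ± 0.17, adjusted p = 0.141). The Dtnb call was lost without C2S replicate 2 (adjusted p = 0.0823), C2S replicate 3 (0.0842) or PM replicate 2 (0.0505). The Rmst call was lost without C2S replicate 2 (0.146), C2S replicate 3 (0.112), PM replicate 2 (0.121), PM replicate 3 (0.0791), OM replicate 1 (0.0529) or OM replicate 2 (0.0675), the OM libraries entering through the shared estimate of the spread. Without C2S replicate 2, C2S replicate 3 or PM replicate 2, 2 long-span circles were called, those of Grik2. All circRNAs tested gave 10, 11 and 17 higher and 12, 11 and 11 lower calls in these runs.

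The linear RNA of most host genes differed between OM and PM, at a share near that of all genes. The linear changes had a median SE of 0.0684 among hosts, against 0.48 among the long-span circles (log2), and the call rates of the 2 measures were not tested against each other. Of the 199 hosts tested on log2(FPKM + 1), 50 were higher and 71 lower in OM than in PM (60.8%, against 54.8% of all 13049 genes tested, of which 27.1% were higher and 27.7% lower). Grik2 averaged 49.6 ± 5.35 FPKM in OM and 13.5 ± 1.92 FPKM in PM (1.81 ± 0.10, adjusted p = 7.5e-07), and Dtnb averaged 23.3 ± 0.756 FPKM in OM and 8.18 ± 0.263 FPKM in PM (1.40 ± 0.04, adjusted p = 1e-08). Pcdh19 fell to 15.7 ± 2.09 FPKM in OM, against 25.1 ± 3.34 FPKM in PM (-0.64 ± 0.11, adjusted p = 0.00102). In C2S against OM, 19 hosts were higher and 14 lower (16.6%, against 22.0% of all genes, 10.6% higher and 11.5% lower). Leaving out C2S replicate 1, 2 or 3 or OM replicate 1 brought that count down to 19, 17, 13 or 20. The calls among all genes fell as well, from 1380 higher and 1497 lower. They stood at 926 and 961, 878 and 853, 739 and 675, or 983 and 986 in the same order. In C2S against PM, 55 were higher and 62 lower (58.8%, against 56.0%, 27.6% higher and 28.4% lower).

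Several hosts with large linear differences have circles too rare to test. These were picked after their values were seen. Pparg, the nuclear receptor known as the master regulator of fat cell formation, averaged 15.1 FPKM in C2S, 8.86 FPKM in OM and 2.13 FPKM in PM, with a log2 change of 0.71 ± 0.064 in C2S over OM (adjusted p = 0.00029) and 1.66 ± 0.064 in OM over PM (adjusted p = 7.2e-08); neither of its 2 long-span circles reached 3 libraries. Sox5, a transcription factor of the cartilage lineage, averaged 10.7 ± 0.847 FPKM in OM and 3.27 ± 0.214 FPKM in PM (1.45 ± 0.066, adjusted p = 1.9e-07), with 3 long-span circles, all untested. Trpc6, a cation channel gene, averaged 9.58 FPKM in OM and 50.3 FPKM in PM (-2.28 ± 0.042, adjusted p = 7.8e-10), with 1 untested circle. Runx2, the transcription factor that commits cells to the bone lineage, averaged 5.89 ± 0.519 FPKM in C2S, 4.57 ± 0.505 in OM and 4.45 ± 0.898 in PM (SD, n = 3 each), and did not pass in OM against PM (0.04 ± 0.12, adjusted p = 0.794); its long-span circle, exons 3 to 6 over 85237 bases, was listed in a single PM library with 3 reads.

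The signs of the long-span circular estimates in OM against PM were set beside the direction of the host. Of the 37 tested circles whose host was higher, 30 had a positive circular estimate, with a median of 0.61 beside a median host change of 0.49. Of the 44 whose host was lower, 28 had a negative one, with a median of -0.15 beside a host median of -0.44. Of the 46 whose host did not pass, 34 estimates were positive and 12 negative. Positive estimates prevailed among all 127 tested circles (63.0%, against 55.3% of all circRNAs tested), so the count under higher hosts lies near that under hosts not called. The same split over all circRNAs was not made. The circular and linear values of a gene come from the same libraries, and circles of 1 gene share their host, so these counts are a description.

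A direct test of each circle's change against that of its host found none of the 127 past the threshold in any of the 3 comparisons. In OM against PM 0.446% of the 2690 circRNAs with a tested host passed, in C2S against OM 0.0% and in C2S against PM 0.409%. Long-span circles with an unadjusted p under 0.05 in limma numbered 9, 7 and 15 of 127 in these comparisons. Among all 2690 such circRNAs numbered 319, 170 and 324. The long-span share was thus lower in OM against PM (7.09%, against 11.9%) and C2S against OM (5.51%, against 6.32%). In C2S against PM the shares were nearly equal. The circular change of Grik2 circ_2440 exceeded that of the host by 1.02 ± 0.46 (log2, SE) in OM against PM, with an adjusted p of 0.414, and that of circ_1704 by 0.13 ± 0.41 (adjusted p = 0.939). For Dtnb circ_906 the difference was -0.07 ± 0.42, for Pcdh19 circ_1199 -0.27 ± 0.37 and for Rmst circ_1483 -0.13 ± 0.36. The median SE of this difference was 0.479 among long-span circles. The circular side was taken as log2(RPM + 111.7), which understates the change of low circRNAs, and the host side as log2(FPKM + 1). The calls depended on that choice. In OM against PM, a pseudocount of 55.85 RPM left 0 of the 2690 called, while 223.4 RPM gave 57 higher and 29 lower, with 3 long-span circles among the higher.

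**Figure D3:**
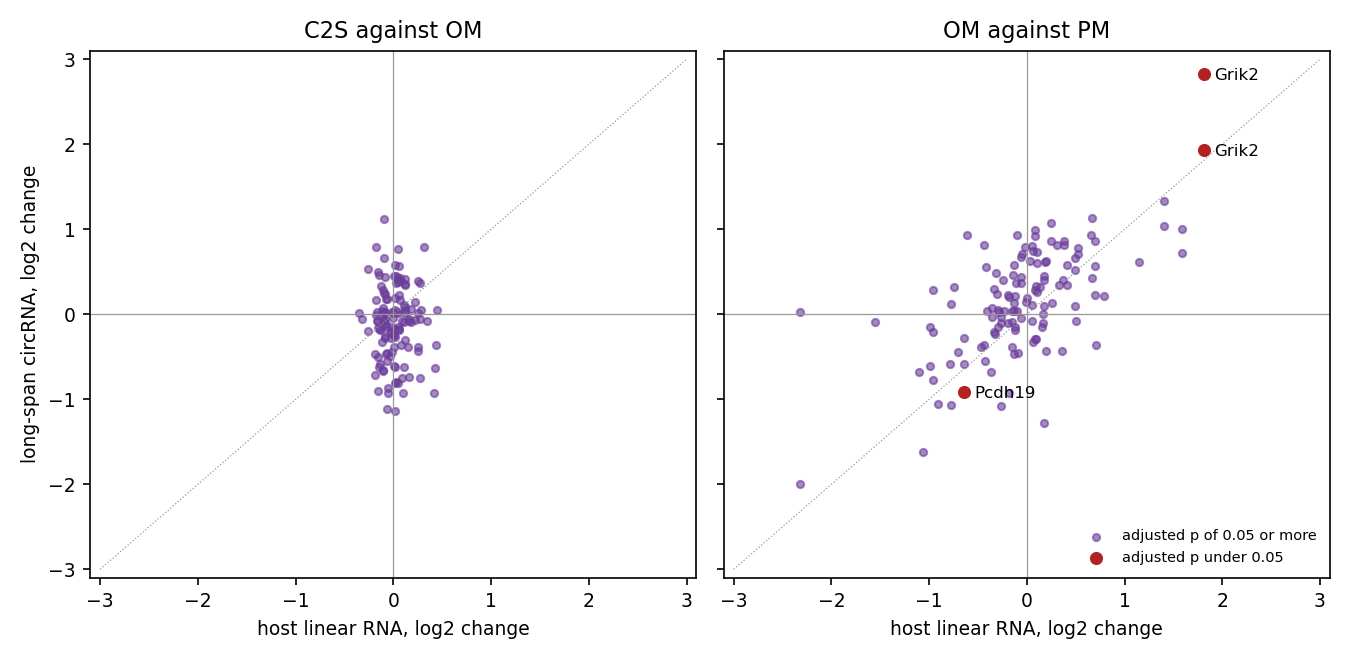
Log2 change of each of the 127 tested long-span circRNAs (vertical axis) against the log2 change of its host's linear RNA (horizontal axis), for C2S against OM (left) and OM against PM (right); red points passed the circRNA test and the dotted line marks equal change. In C2S against OM no circRNA passed and most points lie near 0 on the horizontal axis, and in OM against PM both Grik2 circles lie at the upper right and the Pcdh19 circle at the lower left.

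Long-span circles were seldom the only or the main circle of their gene. Of the 200 hosts, 193 had other circRNAs, and in 33 of these a long-span circle was the highest; the long-span share of the host's circular RPM had a median of 10.3% among the 193. Of the 310 circles, 255 shared an acceptor or a donor with at least 1 shorter exonic circRNA. For 214 of them at least 1 such shorter circle had a higher mean RPM, and 39 were higher than every such shorter circle. Dtnb circ_906 starts at the same acceptor, exon 5, as circ_2669, which stops at exon 8 after 30784 bases. That shorter circle averaged 2934 ± 360 RPM in C2S, 3139 ± 98.0 in OM and 1407 ± 198 in PM, and passed in OM against PM (1.11 ± 0.15, adjusted p = 0.00155). The long circle, with exon 9 added, spans 69257 bases but holds only 639 spliced bases, against 514 in the short one.

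In Grik2 the long circle was the higher one. Circ_2440 (exons 2 to 6, 1286 RPM on average) shares its donor with circ_689 (exons 4 to 6, 11818 bases, 1015 RPM). Circ_689 had 1323 ± 194 RPM in C2S, 1545 ± 38.8 in OM and 176 ± 172 in PM (OM over PM 2.74 ± 0.39, adjusted p = 0.0019). Circ_1704 (exons 7 to 10, 810.7 RPM) shares its acceptor with circ_2267 (exons 7 to 9, 269.6 RPM), which was listed in all C2S and OM libraries and in no PM library. The long and the short circle of each pair thus lay lower in PM together.

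Some genes offered a ladder of circles from a common end. In Tasp1, 3 of the 4 long-span circles start at the acceptor of exon 2: circles from exon 2 to exon 6, 7 and 8 averaged 134.8, 49.02 and 629.8 RPM, beside shorter ones from exon 2 to exon 4 (977.6 RPM) and exon 5 (462.8 RPM). The 3 of Pcdh19 share a donor and differ in the acceptor, with 1702, 300.1 and 63.61 RPM. Of the 5 of Rmst, circ_1483 held almost all RPM, and the next, circ_1144, averaged 69.08. Arhgap10 had the most, 7 long-span circles with 6 acceptors and 3 donors, and Fer, a tyrosine kinase gene, had 6; 130 hosts had 1, 46 had 2 and 24 had at least 3. In 51 of the 70 hosts with at least 2, long-span circles shared a start or an end.

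**Figure D4:**
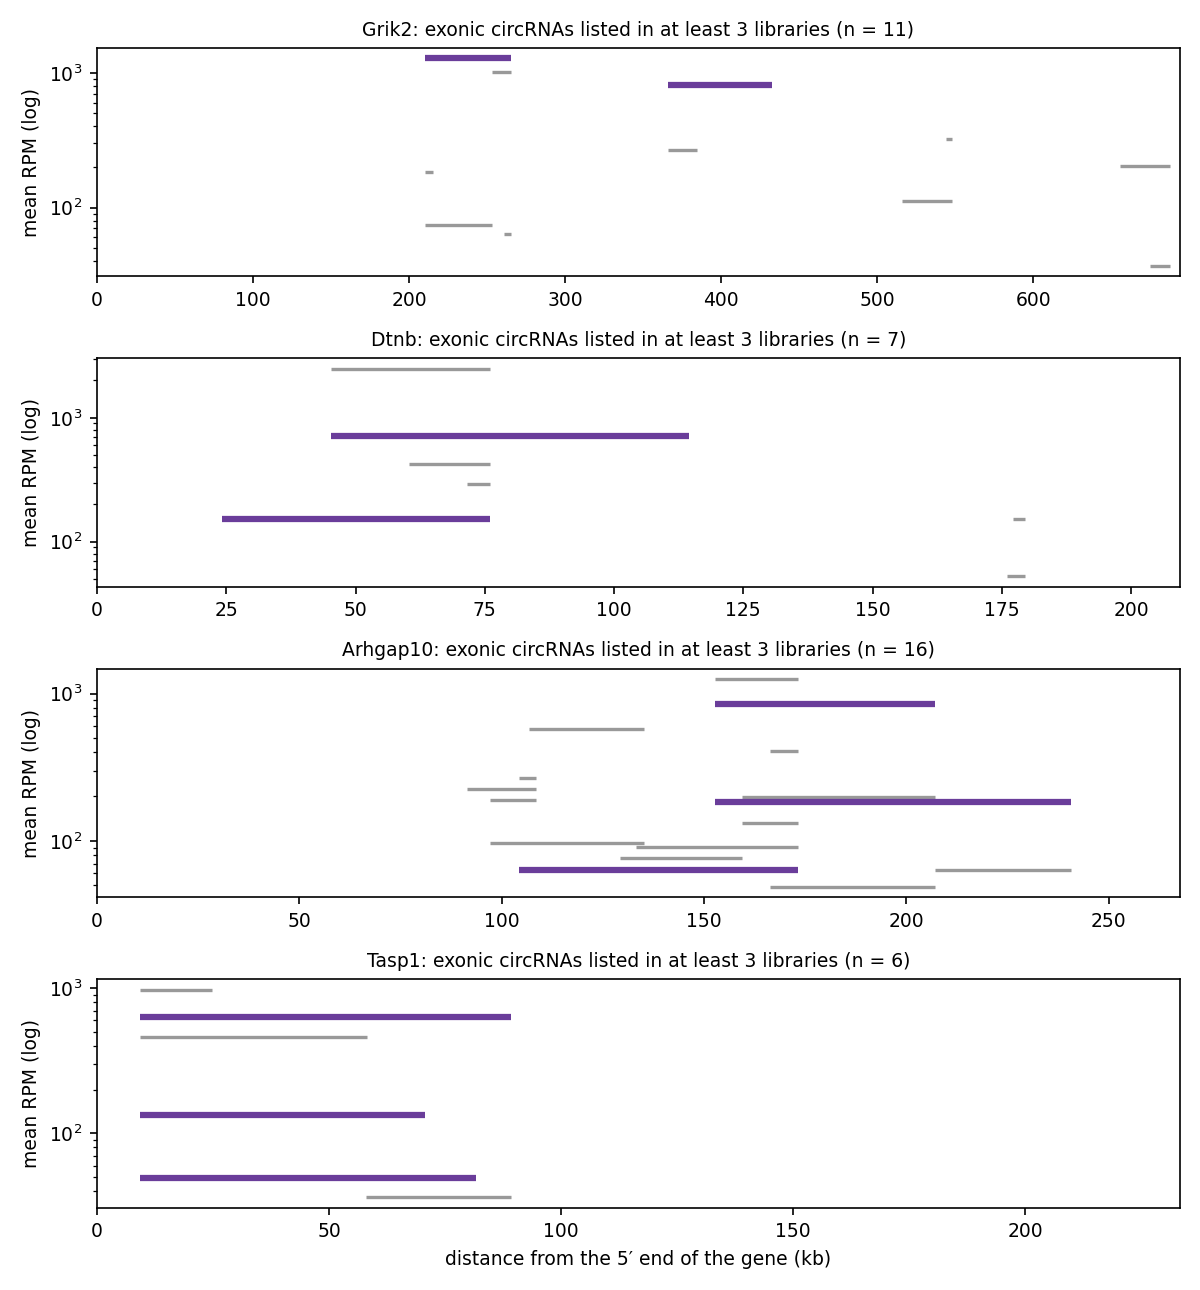
Exonic circRNAs listed in at least 3 libraries in Grik2, Dtnb, Arhgap10 and Tasp1, drawn from acceptor to donor along the gene as distance from its 5′ end (kb), at the height of their mean RPM (log axis); purple bars are long-span circles and grey bars shorter ones. The 2 Grik2 long-span circles lie apart at 1286 and 810.7 RPM, and the Tasp1 circles fan out from a common acceptor.

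Hosts with at least 3 long-span circles were otherwise mixed. Of the 4 circles of Ltbp1, whose protein holds latent TGF-beta in the matrix, the highest averaged 113.1 RPM, although the gene reached 141 ± 1.95 FPKM in C2S, 114 ± 12.9 in OM and 145 ± 8.24 in PM. Those of Zfp827 and Ust held 5.22% and 8.86% of the circular RPM of their genes. Those of Pvt1, another noncoding gene, held 4.03%, since its short circle of exon 2 averaged 4776 RPM. Higher shares were held by the long-span circles of Pcdh19 (92.7%), Rmst (74.2%) and Zeb1 (68.2%). All 3 circles of Usp6nl were long-span, with a sum of 47.89 RPM, and none of them was tested. Stau2, which encodes a double-stranded RNA-binding protein, had 1 long-span circle, circ_2569, just below the 10 highest at 559 RPM; it had 391, 0 and 590 RPM in C2S, 289, 418 and 510 in OM, and 950, 891 and 992 in PM. The missing entry in C2S is 1 of 3 among 164 long-span entries (1.83%) with at least 5 reads in the group's other libraries. Among all circRNAs, 181 of 5175 such entries (3.5%) were missing. With at least 10 reads in the other libraries, 0 of 79 long-span entries were missing, against 38 of 2465 (1.54%) among all circRNAs. Whether a value of 0 came from the sampling of few reads or from a junction that was not called was not tested.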

How the data were processed

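Total RNA of 9 libraries (3 groups of 3) was sequenced. The submitters' processing notes name STAR, HTSeq, RSEM and the build mm10, without roles; every circRNA in the deposited tables carries a CIRI and a find_circ identifier. The deposited circRNA values were taken as RPM, since each is a whole multiple of 1 step per library (tolerance 0.001 reads); the smallest is 2 reads, and a dash was set to 0. The deposited linear values were taken as FPKM: no header names a unit, but multiplying low values by transcript length gave whole reads in 97.58% to 98.44% of cases (tolerance 0.1 reads), from which 29210000 to 38415000 linear reads per library were recovered.

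Tests were run with limma 3.58.1 in R 4.3.3 on all 9 libraries, with no covariate: log2(RPM + 111.7) for circRNAs listed in at least 3 libraries, log2(FPKM + 1) for genes with at least 1 FPKM in at least 3 libraries, and their per-library difference for circRNAs with 1 tested host. P-values were adjusted by Benjamini-Hochberg over each whole table, with a threshold of 0.05. Other pseudocounts, filters, a scaling to linear depth, a replicate block and the leaving out of each library were tried. Exons, introns and gene lengths came from GENCODE M21, which holds 30796 of the 31405 linear genes. Exon numbers are those of the transcript taken for each circle, so circles of 1 gene can be numbered on different transcripts. No source used here says whether counting used strand, so overlapping and antisense genes remain uncertain.

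Circles named are the 10 highest by mean RPM, those past a test, the 3 longest listed in at least 3 libraries, the nearest to 50000 bases on each side and those of hosts with at least 3; Pknox2, Nsd1, Gas2, Galnt18, Cdk14, Stau2, Pparg, Trpc6 and Runx2 fall outside it and were picked after their values were seen. Not every circle that meets the rule is reported here. The members, lists and rule were chosen with earlier results of these data known. No 2 libraries held identical values.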

Additional observations from a re-analysis of the deposited data

How the results depend on the processing

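The main counts of long-span circRNAs past the threshold were 3 in OM against PM and 4 in C2S against PM. Without the filter they were 6 and 7 of 310. All 6614 circRNAs then gave 41 higher and 38 lower calls in OM against PM, and 49 and 39 in C2S against PM. Among circRNAs listed in at least 6 libraries, both counts were 6 of 49. All 1454 of these gave 39 higher and 31 lower calls in OM against PM, and 36 and 30 in C2S against PM. With the pseudocount doubled, the counts were 4 and 6 of 127, beside 23 higher and 26 lower calls, and 28 and 28, among all 2898. Among the 82 circles of at least 75000 bases, tested or not, the counts of both comparisons were 0. That minimum was chosen after the data were seen, and the planned minimum of 100000 bases left no circle. Leaving out each library gave 2 to 3 calls in OM against PM and 2 to 4 in C2S against PM, and always 0 in C2S against OM. All 2898 circRNAs then gave 10 to 25 higher and 5 to 20 lower calls in OM against PM, against 21 and 24 in the main fit. In C2S against PM they gave 10 to 26 and 11 to 17, against 27 and 21. Hosts called in C2S against OM (33) numbered 18 without the filter and 13 to 40 with a library left out, those in OM against PM 104 to 127 and those in C2S against PM 101 to 118. All genes gave 1052 higher and 994 lower calls in C2S against OM without the filter. With a library left out they gave 739 to 1551 higher and 675 to 1675 lower there. The ranges were 3154 to 3448 and 3104 to 3732 in OM against PM, and 3120 to 3673 and 3180 to 3753 in C2S against PM. With the pseudocount doubled, 3 of 127 circles differed from their host in OM against PM (Cdk14 circ_6508, Galnt18 circ_608 and Gas2 circ_696). In C2S against PM 2 of 127 did (Galnt18 circ_608 and Gas2 circ_696). All 2690 circRNAs with a tested host then gave 57 higher and 29 lower calls in OM against PM, and 50 and 38 in C2S against PM. Each of these long-span circles was listed in at most 4 libraries, and the cause was not tested. Shares of circRNA reads were 2.91% in C2S, 2.97% in OM and 2.61% in PM for circles listed in at least 3 libraries, 0.45% in C2S, 0.543% in OM and 0.478% in PM for those of at least 75000 bases, and 2.99% in C2S and 3.07% in OM without Grik2, likewise left out after the data were seen; with a library left out they ranged over 3.13% to 3.37% in C2S, 3.30% to 3.41% in OM and 2.87% to 2.94% in PM. Both Grik2 circles kept their calls under every alternative run, with adjusted p up to 0.041 in OM against PM and up to 0.0265 in C2S against PM. Values of the named circles and their hosts were counted once per alternative, so 1 circle or host can count several times. None changed sign while called. For circles, 6 such values came past the threshold, 15 lost it and 1206 stayed the same. For hosts, 4 came past it, 66 lost it and 974 stayed the same.

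Same-numbered libraries deviated together by correlations of -0.0174 to 0.0348 for circRNAs and -0.0921 to 0.395 for linear values. Different-numbered libraries of different groups had -0.0359 to 0.0324 and -0.469 to 0.187. The main fit did not take the numbers as pairs, a choice that the linear values do not settle. With the replicate number as a block, long-span calls were 3 in OM against PM, 3 in C2S against PM (Rmst lost, limma adjusted p = 0.0591) and 0 in C2S against OM. All circRNAs tested gave 17 higher and 18 lower calls, 23 and 16, and 0 and 0 in the same order. Hosts called were then 127, 122 and 38, against 121, 117 and 33 in the main fit. All genes gave 3673 higher and 3705 lower calls, 3720 and 3795, and 1447 and 1511 in the same order. In the main fit they gave 3542 and 3609, 3605 and 3706, and 1380 and 1497. The 2 planned count tests on recovered reads were not run; no library lists a circRNA at 1 read. The listed entries held a median of 3 reads, and how far depth limits the calls was not tested.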
